A study of Mus musculus with 32 samples.

Results

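*Gpr146*, which encodes an orphan class A G protein-coupled receptor and was the gene deleted in these mice, is described here together with 9 genes that lie beside it on mouse chromosome 5. The members were taken by name, 10 of the 24646 genes measured on each array, and all 10 were found in each of the 4 tissue tables. They were chosen by their chromosomal position and by how they differed between knockout (KO) and wild-type (WT) mice in these same tables, so the differences of the 10 genes are given as a description, without a test. Gene expression had been measured with Affymetrix Mouse Gene 2.1 ST arrays in liver and in 3 adipose depots, the epididymal white fat (eWAT), the inguinal white fat (iWAT) and the brown fat (BAT). Each of the 8 groups held 4 arrays, 1 array per mouse and tissue, for 32 arrays in all. The WT and KO mice were male C57BL/6J littermates aged 20 weeks, all fed a high-fat diet (HFD) for 3 months and fasted overnight. The KO mice lacked *Gpr146* in the whole body, through a pair of CRISPR/Cas9 cuts that removed the segment holding its open reading frame and left its first, noncoding exon. The values are deposited log2 intensities, and every level and difference below is on this log2 scale unless a fold is named.

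A G protein-coupled receptor passes a signal from outside the cell to G proteins on the inner face of the membrane, and a class A receptor that is called orphan has no agreed ligand. The genes around *Gpr146* share no pathway. *Pdgfa* encodes a growth factor, *Prkar1b* a regulatory subunit of the cAMP-dependent protein kinase (PKA), and *Sun1* an inner nuclear membrane protein of the LINC complex, which ties the nucleus to the cytoskeleton. *Get4* encodes a factor that hands tail-anchored membrane proteins to their insertion machinery, *Adap1* a GTPase-activating protein for the small GTPase ARF6, and *Cox19* a factor for the supply of copper to cytochrome c oxidase in mitochondria. *Zfand2a* encodes AIRAP, an arsenite-inducible protein that binds the proteasome. *C130050O18Rik* and *3110082I17Rik* carry provisional names.

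In the gene order of RefSeq (assembly GRCm38.p6), *Pdgfa*, *Prkar1b*, *Sun1*, *Get4*, *Adap1*, *Cox19* and *3110082I17Rik* precede *Gpr146*, and *C130050O18Rik* and *Zfand2a* follow it. *C130050O18Rik* is the measured gene next after *Gpr146* and lies on the same, plus strand. *3110082I17Rik* lies on the minus strand, and its annotated span runs past both *Gpr146* and *C130050O18Rik*. *Sun1* and *Get4* are also on the plus strand, and *Pdgfa*, *Prkar1b*, *Adap1*, *Cox19* and *Zfand2a* are on the minus strand.

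The deleted gene was lower in every KO array than in every WT array of its tissue. In liver, *Gpr146* (transcript cluster 17444002) read 6.17, 6.32, 6.21 and 6.19 in WT replicates 1 to 4 and 4.50, 4.26, 4.63 and 4.41 in KO replicates 1 to 4. This was the tightest separation of the 4 tissues, with a difference of -1.77 ± 0.09 (SE, n = 4 and 4), or 3.41-fold lower in KO. In eWAT the WT arrays read 5.32, 5.84, 5.53 and 6.05 and the KO arrays 4.63, 3.63, 4.04 and 4.33, a difference of -1.53 ± 0.22 (SE). In iWAT the WT arrays read 5.37, 5.59, 6.58 and 6.37 and the KO arrays 4.45, 3.82, 5.10 and 4.31, a difference of -1.55 ± 0.33 (SE). Both white depots had KO arrays spread over more than 1 log2 unit, where the liver KO arrays spanned 4.26 to 4.63. In BAT the WT arrays read 5.10, 5.42, 5.34 and 5.60 and the KO arrays 3.82, 4.69, 4.05 and 4.27, the smallest of the 4 differences at -1.16 ± 0.18 (SE). The KO arrays still placed *Gpr146* at percentile 71.4 of all genes in liver, 62.8 in eWAT, 61.1 in iWAT and 68.4 in BAT by group mean. The tables do not say which exons the *Gpr146* probes lie in, so what the remaining KO value measures was not tested. The titles of the 4 liver KO samples name both genotypes, while their other labels give KO, and these 4 arrays held the lower *Gpr146* values.

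For *Gpr146* and *C130050O18Rik*, the arrays labelled WT replicate 1 stood apart from the other WT arrays in the 3 adipose depots. *Gpr146* was lowest there among the WT arrays, at 5.32 in eWAT, 5.37 in iWAT and 5.10 in BAT, though still above every KO array. *C130050O18Rik* (transcript cluster 17444009) read 6.45, 6.98 and 5.85 in these 3 arrays, where the other WT arrays of the depots ranged from 3.06 to 4.29. In eWAT this was the gene farthest from the mean of the other 3 WT arrays among all 24646 genes, and it ranked 17th in iWAT and 13th in BAT. On antilogged values, WT replicate 1 lay 43.2% (eWAT), 51.7% (iWAT) and 51.8% (BAT) of the way from the mean of the other WT arrays to the KO mean for *C130050O18Rik*, and 43.7%, 64.4% and 38.6% of the way for *Gpr146*. In liver the same replicate number lay 0.5% of the way for *C130050O18Rik* and 6.1% for *Gpr146*. The labels name WT mouse number 1 as the source of replicate 1 in liver and in each depot. They do not state outright that this is the same animal throughout. Whether the genotype label of these 3 arrays holds was not tested, so every WT mean in an adipose depot includes 1 array whose *Gpr146* and *C130050O18Rik* values lie between the genotypes. The members' adipose differences and the calls, percentiles and correlations that change most without these arrays are given below in both ways.

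**Figure D1:**
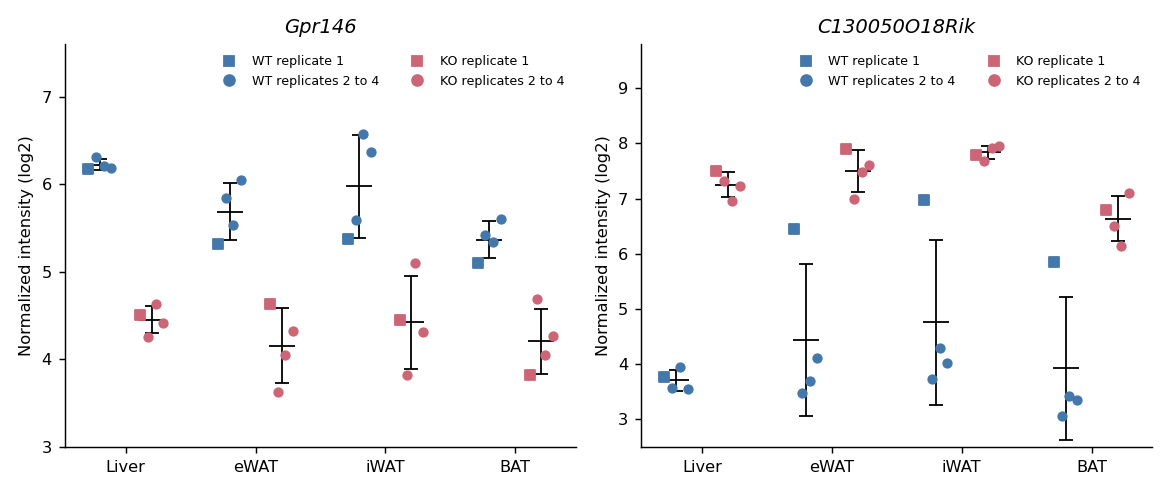
Log2 intensity of *Gpr146* (left) and *C130050O18Rik* (right) in each array, by tissue, with WT in blue, KO in red, replicate 1 as a square and replicates 2 to 4 as circles; bars give the mean and SD of 4 arrays. Every KO array lies below every WT array for *Gpr146* and above every WT array for *C130050O18Rik*, and the blue squares of eWAT, iWAT and BAT (6.45, 6.98 and 5.85) lie between the other WT arrays and the KO arrays.

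*C130050O18Rik*, the next gene downstream of *Gpr146*, was higher in every KO array than in every WT array in all 4 tissues. In liver it read 3.77, 3.56, 3.94 and 3.54 in WT and 7.51, 7.32, 6.95 and 7.24 in KO, a difference of 3.55 ± 0.13 (SE) or 11.7-fold. That was the 2nd largest absolute difference among all genes of the liver table. In eWAT the WT arrays read 6.45, 3.47, 3.69 and 4.12 and the KO arrays 7.89, 6.995, 7.48 and 7.61. In iWAT the WT arrays read 6.98, 3.74, 4.29 and 4.01 and the KO arrays 7.79, 7.68, 7.91 and 7.96, the narrowest KO group of the 4 tissues. In BAT the WT arrays read 5.85, 3.06, 3.43 and 3.35 and the KO arrays 6.79, 6.50, 6.14 and 7.09. The differences were 3.06 ± 0.57, 3.08 ± 0.61 and 2.71 ± 0.52 (SE) in eWAT, iWAT and BAT. Without WT replicate 1 they were 3.74 ± 0.22, 3.82 ± 0.15 and 3.35 ± 0.21, with a smaller SE in each depot. The corresponding *Gpr146* differences without that array were -1.65 ± 0.23, -1.76 ± 0.33 and -1.25 ± 0.19. By absolute difference *C130050O18Rik* ranked 14th in eWAT, 1st in iWAT and 2nd in BAT, and *Gpr146* ranked 10th, 313th, 33rd and 36th in liver, eWAT, iWAT and BAT. In KO mice the gene stood between percentiles 92.2 and 97.1 of all genes in the 4 tissues.

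The start of *Gpr146* with the most GC boxes and the start of *C130050O18Rik* are printed because these 2 genes moved in opposite directions in every tissue. RefSeq gives *Gpr146* 3 starts and *C130050O18Rik* 1 in the promoter table used, and each line holds the 250 bases before the start, 5′ to 3′, with the GC box GGGCGG (read on both strands, so also as CCGCCC) in capitals. The first is chr5:139380389-139380638, plus strand, and the second chr5:139405034-139405283, plus strand (GRCm38.p6).
*Gpr146*: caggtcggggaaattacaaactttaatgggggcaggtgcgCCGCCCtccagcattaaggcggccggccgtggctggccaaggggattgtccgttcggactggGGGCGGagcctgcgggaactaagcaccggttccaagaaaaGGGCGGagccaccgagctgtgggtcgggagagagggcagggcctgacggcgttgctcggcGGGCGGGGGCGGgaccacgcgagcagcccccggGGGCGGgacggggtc
*C130050O18Rik*: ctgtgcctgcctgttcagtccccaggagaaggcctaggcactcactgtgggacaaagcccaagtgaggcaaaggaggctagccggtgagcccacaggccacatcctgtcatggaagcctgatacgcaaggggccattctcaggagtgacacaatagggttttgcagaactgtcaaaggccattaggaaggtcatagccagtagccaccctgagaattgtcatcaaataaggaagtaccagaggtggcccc
The *Gpr146* stretch held 6 GC boxes and was 70.0% G or C, and the *C130050O18Rik* stretch held none and was 54.8% G or C. Of the 32851 promoters in the table, 32.7% held at least 1 GC box in the same 250 bases, and their median G and C content was 52.4%. The other 2 *Gpr146* starts held no GC box. A match of letters is a description and not a bound site.

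*Zfand2a*, the member that follows *C130050O18Rik*, was lower in KO in the 3 adipose depots without overlap, and lower on average in liver with overlap. In eWAT (transcript cluster 17454416) it read 6.91, 7.13, 6.93 and 6.99 in WT and 5.91, 6.49, 5.14 and 5.70 in KO, a difference of -1.18 ± 0.23 (SE) or 2.27-fold lower. The WT arrays lay between 6.91 and 7.13, and the KO arrays were spread from 5.14 to 6.49. In iWAT it read 5.94, 6.15, 5.86 and 6.51 in WT and 4.39, 5.17, 5.08 and 5.48 in KO, a difference of -1.09 ± 0.23. In BAT it read 4.57, 5.08, 4.80 and 4.85 in WT and 4.14, 4.36, 4.04 and 3.99 in KO, a difference of -0.69 ± 0.12. In liver it read 4.52, 4.88, 5.02 and 4.63 in WT and 4.19, 4.65, 4.25 and 4.09 in KO, a difference of -0.47 ± 0.14, where KO replicate 2 exceeded WT replicates 1 and 4. The *Zfand2a* value of WT replicate 1 differed from the mean of the other WT arrays by -0.11 (eWAT), -0.24 (iWAT) and -0.35 (BAT). Without WT replicate 1 the differences were -1.21 ± 0.27 in eWAT, -1.15 ± 0.26 in iWAT and -0.78 ± 0.12 in BAT.

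The promoter of *Zfand2a* is shown with that of *Hspa1b*, an inducible chaperone of the HSP70 family, because both genes were lower in KO and both stretches hold a heat shock element. HSF1, the main heat shock factor, binds such repeats of GAA and its complement, and drives chaperone genes when proteins misfold. Each line holds the 250 bases before the start, 5′ to 3′, with the heat shock element (TTCNNGAA or GAANNTTC, each its own reverse complement), the cAMP response element TGACGTCA (also its own reverse complement) and the GC box in capitals. *Zfand2a* is chr5:139484492-139484741, minus strand, and *Hspa1b* is chr17:34959239-34959488, minus strand (RefSeq, GRCm38.p6).
*Zfand2a*: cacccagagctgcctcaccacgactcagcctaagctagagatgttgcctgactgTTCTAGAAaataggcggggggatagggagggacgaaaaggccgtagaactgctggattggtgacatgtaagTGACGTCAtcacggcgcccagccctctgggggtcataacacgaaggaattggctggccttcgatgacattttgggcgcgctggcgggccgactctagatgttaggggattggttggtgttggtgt
*Hspa1b*: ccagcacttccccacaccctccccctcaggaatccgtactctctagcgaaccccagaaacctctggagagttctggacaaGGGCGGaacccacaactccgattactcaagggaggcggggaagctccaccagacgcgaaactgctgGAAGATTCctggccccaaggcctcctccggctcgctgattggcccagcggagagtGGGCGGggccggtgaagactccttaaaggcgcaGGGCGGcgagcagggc
In *Zfand2a* the heat shock element began at position -196 and in *Hspa1b* at -104, counted back from the start. The *Zfand2a* stretch also held the 1 cAMP response element found among the 10 members. Of all 32851 promoters, 12.8% held a heat shock element so defined, 1.55% a cAMP response element and 32.7% a GC box. Counted by gene over all its starts, 3932 of 27025 genes (14.5%) held the heat shock element, as did 2 of the 10 members, *Zfand2a* and *Pdgfa*. The other 8 members did not hold these letters in their windows. Of 17 genes of the heat shock list below with a promoter here, 8 (47.1%) held the element. Among those called lower in KO liver, *Hspa1b* and *Hsph1* held it, and *Bag3*, *Dnajb1* and *Chordc1* did not. Whether the element bears on any of the differences was not tested.

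Genes of the heat shock response were lower in KO in liver and eWAT. The list held 22 measured genes, namely chaperones, co-chaperones, heat shock factors and *Zfand2b*, and *Zfand2a* is not among them. *Zfand2b* differed by -0.04 to 0.17 over the 4 tissues and was not called. The list was chosen with earlier results of these data known, so its counts are a description and no independent test. In liver 6 of the 22 fell (adjusted p below 0.05 over all genes, limma) and none rose, beside 0.661% of all genes called in either direction. The median difference was -0.39 against 0.01 over all genes. The list stood at a median WT percentile of 91.1 in liver. With dim genes left out, 252 of 12323 genes were called there. *Hspa1b* read 8.17, 7.24, 8.15 and 8.62 in WT liver and 4.42, 4.80, 5.02 and 3.64 in KO liver (-3.58 ± 0.32, adjusted p = 0.00167). *Hsph1*, a nucleotide exchange factor of HSP70, fell by 1.69 ± 0.28 (adjusted p = 0.025), *Chordc1*, a cochaperone of HSP90, by 1.09 ± 0.16 (adjusted p = 0.0144), and *Dnajb1*, a J-domain cochaperone, by 1.00 ± 0.12 (adjusted p = 0.00565). No WT array of liver overlapped a KO array for any of the 6. Without WT replicate 3, 3 genes of the 7 partner lists described here were called in liver in place of these 6.

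In eWAT 10 of the 22 heat shock genes fell and 2 rose, beside 15.2% of all genes called. The median difference was -0.38 against 0.03 over all genes. The median WT percentile of the list was 84.1 in eWAT. *Hspa1b* (-1.77 ± 0.34, adjusted p = 0.0127) and *Hsph1* (-1.24 ± 0.28, adjusted p = 0.019) again differed most, followed by *Hspa1a* (-0.70 ± 0.20, adjusted p = 0.0408) and the chaperone *Hspa4l* (-0.66 ± 0.16, adjusted p = 0.0224). *Hspa1a* and *Hspa1b* have nearly identical coding sequences, so an array may not tell them apart. The 2 that rose, named after their values were seen, were *Hspd1* and *Hspb8*. *Hspd1*, the mitochondrial chaperonin, rose by 0.40 ± 0.10 (adjusted p = 0.0261) and *Hspb8*, a small heat shock protein, by 0.45 ± 0.13 (adjusted p = 0.0432). Under quantile normalization 4 of the 22 fell and 2 rose in eWAT. With WT replicate 1 left out, 10 fell and none rose, with a median of -0.44, and *Hspd1* (adjusted p = 0.0684) and *Hspb8* (adjusted p = 0.0747) were not called.

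In iWAT and BAT limma called none of the 22 heat shock genes, with 10 and 14 at an unadjusted p below 0.05. The background of calls was 0.0% in iWAT and 0.0284% in BAT. In BAT the median difference of the list was -0.53 and 20 of the 22 values were below 0. *Hspa1b* read 3.89, 8.02, 8.37 and 7.81 in WT and 2.35, 3.54, 3.50 and 3.34 in KO BAT (-3.84 ± 0.83, adjusted p = 0.127), and *Hsph1* read 4.22, 6.91, 6.42 and 7.80 in WT and 4.66, 4.65, 4.60 and 3.63 in KO. WT replicate 1 was far below the other 3 WT arrays for both. Without WT replicate 1, limma called 9 of the 22 genes in BAT, all lower, with *Hspa1b* at an adjusted p of 0.000498. In iWAT *Hspa1b* read 3.48, 3.50, 5.91 and 5.03 in WT and 3.69, 3.21, 3.52 and 4.01 in KO, with WT replicates 1 and 2 inside the KO range. In iWAT none of the 22 was called without WT replicate 1, with 11 at an unadjusted p below 0.05.

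**Figure D2:**
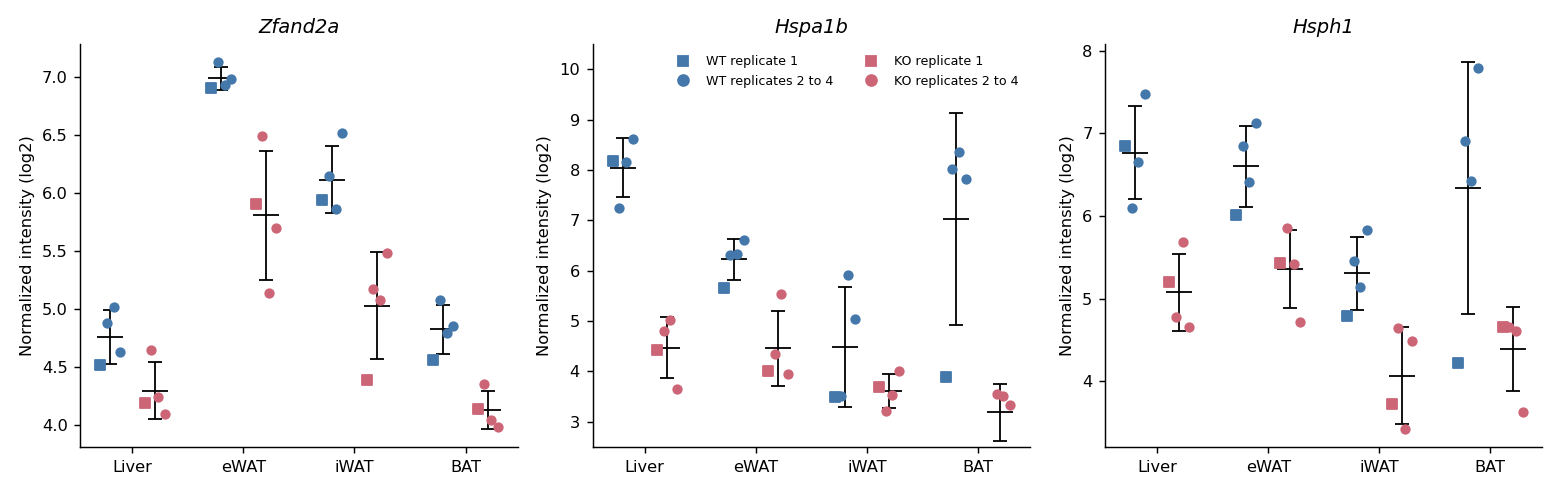
Log2 intensity of *Zfand2a*, *Hspa1b* and *Hsph1* in each array by tissue, with WT in blue, KO in red, replicate 1 as a square and the other replicates as circles; bars give the mean and SD of 4 arrays. *Zfand2a* separates the genotypes in eWAT, iWAT and BAT, and the WT replicate 1 array of BAT reads 3.89 for *Hspa1b* where the other WT arrays read 7.81 to 8.37.

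The remaining 7 members had smaller differences, between -0.53 and 0.54 over the 4 tissues. *Sun1* was higher in KO in eWAT, at 5.49, 5.25, 5.46 and 5.25 in WT and 6.09, 5.66, 5.96 and 5.92 in KO (0.54 ± 0.11), and in BAT, at 5.36, 5.14, 5.06 and 5.02 in WT and 5.65, 5.64, 5.47 and 5.95 in KO (0.53 ± 0.12). Neither tissue had an overlap between the genotypes for *Sun1*. The *Sun1* differences without WT replicate 1 were 0.58 ± 0.12 in eWAT and 0.60 ± 0.12 in BAT. In liver (0.23 ± 0.10) and iWAT (0.09 ± 0.10) the *Sun1* values of the genotypes overlapped. *Pdgfa* was lower in KO in eWAT, at 4.87, 4.91, 4.99 and 4.92 in WT and 4.34, 4.74, 4.41 and 4.39 in KO (-0.46 ± 0.10), without overlap, while the other 3 tissues overlapped and ranged from -0.26 in iWAT to 0.00 in BAT. The *Pdgfa* differences without WT replicate 1 were -0.47 ± 0.11 (eWAT), -0.26 ± 0.13 (iWAT) and 0.07 ± 0.14 (BAT).

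*3110082I17Rik*, whose span overlies *Gpr146* on the other strand, read 4.77, 4.90, 4.58 and 4.89 in WT and 4.51, 4.43, 3.97 and 4.11 in KO eWAT, a difference of -0.53 ± 0.13 without overlap. Its other differences were 0.01 ± 0.13 in liver, -0.16 ± 0.12 in iWAT and -0.10 ± 0.12 in BAT, all with overlap. *Cox19* was higher on average in KO in the 3 adipose depots, with differences of 0.30 ± 0.10 (eWAT), 0.43 ± 0.18 (iWAT) and 0.35 ± 0.14 (BAT), but KO replicate 2 lay among the WT values each time. With WT replicate 1 left out the *3110082I17Rik* differences were -0.54 ± 0.15 (eWAT), -0.21 ± 0.13 (iWAT) and -0.04 ± 0.12 (BAT), and those of *Cox19* 0.30 ± 0.12, 0.33 ± 0.18 and 0.38 ± 0.16. In liver *Cox19* differed by -0.01 ± 0.09. *Adap1* was lower in KO liver without overlap, at 2.73, 2.55, 2.56 and 2.60 in WT and 2.12, 2.51, 2.18 and 2.42 in KO (-0.30 ± 0.10). These values lay below the liver array medians of 3.00 to 3.06, at percentile 40.3 of all genes in WT. The adipose differences of *Adap1* lay between -0.11 and -0.02 with overlap, or between -0.16 and -0.02 without WT replicate 1.

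*Get4* and *Prkar1b* varied least. *Get4* in BAT read 5.41, 5.38, 5.39 and 5.29 in WT and 5.49, 5.48, 5.44 and 5.54 in KO, without overlap but with a difference of 0.12 ± 0.07 where the median absolute difference over all genes of that table was 0.10. Its differences in the other 3 tissues were 0.02 to 0.11. *Prkar1b* differed by -0.21 to -0.05 and overlapped in every tissue. The adipose differences without WT replicate 1 ran from 0.05 to 0.14 for *Get4* and from -0.20 to -0.02 for *Prkar1b*. Under quantile normalization the *Get4* differences were 0.19 (eWAT), 0.26 (iWAT) and 0.19 (BAT), and the *Sun1* difference in iWAT was 0.27 in place of 0.09. The signs of *3110082I17Rik*, *Cox19* and *Get4* in liver, of *Adap1* in eWAT and of *Pdgfa* in BAT, all close to 0, turned under 1 of the 2 other scalings tried.

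Counted over the 10 members, the genotypes did not overlap for 3 in liver (1 higher and 2 lower in KO), 6 in eWAT (2 higher and 4 lower), 3 in iWAT (1 higher and 2 lower) and 5 in BAT (3 higher and 2 lower). The same held for 7.78%, 21.6%, 8.15% and 7.23% of all genes in the 4 tables. Leaving out WT replicate 1, the counts were 6 in eWAT and 3 in iWAT, as before, and 6 in BAT (3 higher and 3 lower), beside 25.7%, 10.9% and 12.5% of all genes. Only *Gpr146* and *C130050O18Rik* among the 10 were free of overlap in all 4 tissues, and *Zfand2a* was in 3.

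**Figure D3:**
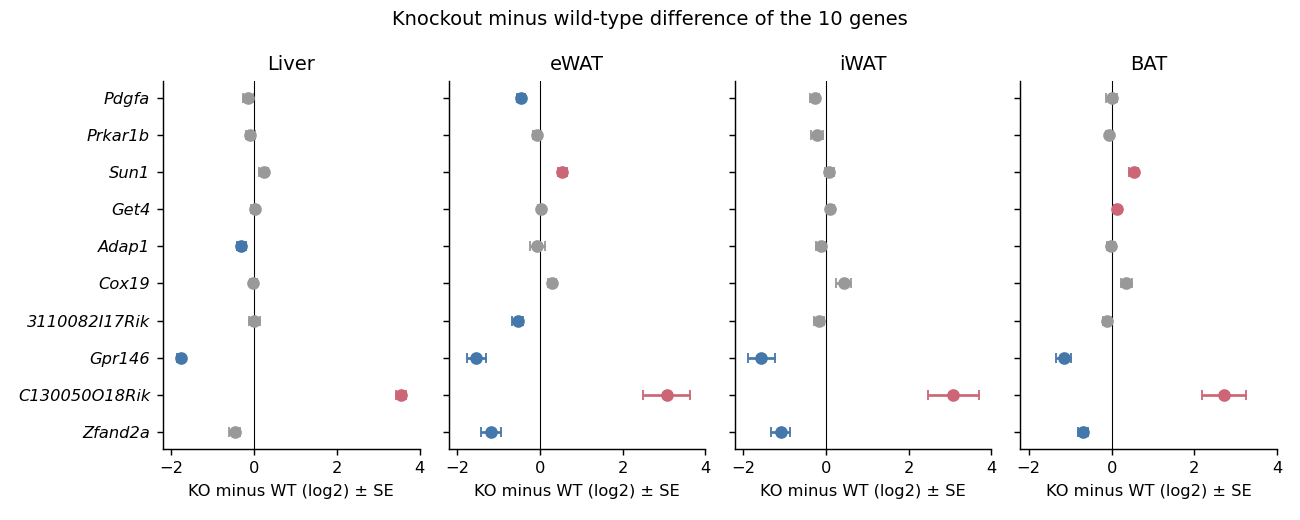
KO minus WT difference (log2) with its SE for the 10 genes in gene order, 1 panel per tissue, with red for genes whose KO arrays all lie above the WT arrays, blue for all below, and grey for overlap. *C130050O18Rik* lies furthest right at 2.71 to 3.55, *Gpr146* at -1.77 to -1.16, and the 7 genes other than these and *Zfand2a* at -0.53 to 0.54.

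The other genes of the region were examined with the 20 measured genes on each side of *Gpr146*, of which 31 are not members. In liver, iWAT and BAT limma called none of the 31 (adjusted p below 0.05 over all genes), with 2, 4 and 4 at an unadjusted p below 0.05. By the methods' t-test 1, 3 and 5 of the 31 passed in these tissues before adjustment and 0 after it. In eWAT 5 of the 31 fell and none rose, a share of 16.1% beside 15.2% of all genes, and under quantile normalization 4 fell and 1 rose. They were *Ttyh3*, a chloride channel family gene (-1.06 ± 0.19, adjusted p = 0.0103), *Lfng*, a glycosyltransferase that modifies Notch (-0.60 ± 0.12, adjusted p = 0.0149), *Fam20c*, the Golgi casein kinase (-0.82 ± 0.17, adjusted p = 0.0152), *Micall2* (-0.65 ± 0.16, adjusted p = 0.0239) and the sorting nexin *Snx8* (-0.73 ± 0.20, adjusted p = 0.0399). None of the 5 is among the 3 nearest measured genes on either side. The count was 3 without WT replicate 1 (*Ttyh3*, *Fam20c* and *Lfng*), 2 without WT replicate 2, and 3 without WT replicate 4 or KO replicates 1, 3 or 4.

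The nearest genes that are not members were not called in any tissue. *Gpr30*, now *Gper1*, a receptor for oestrogen and the measured gene after *C130050O18Rik*, differed by 0.25 ± 0.14 in liver, 0.14 ± 0.20 in eWAT, 0.23 ± 0.16 in iWAT and 0.25 ± 0.15 in BAT (SE). *Mir339*, a microRNA precursor just before *Gpr146*, differed by -0.19 to 0.30 over the 4 tissues, the cytochrome P450 gene *Cyp2w1* by -0.04 to 0.43, and *Heatr2*, now *Dnaaf5* and needed to assemble ciliary dynein arms, by -0.51 to -0.14. After *Zfand2a*, *4930500L23Rik* differed by 0.05 to 0.29 and the homeobox gene *Uncx* by 0.04 to 0.15. Among these neighbours, the genotypes did not overlap for *Cyp2w1* in iWAT (0.43, higher in KO) and *Heatr2* in eWAT (-0.51, lower in KO). *Gpr30* lies between *C130050O18Rik* and *Zfand2a* in the order. Its 0.14 to 0.25 stood beside 2.71 to 3.55 and -1.18 to -0.47 for these 2 genes. In WT *Gpr30* stood at percentiles 45.7 to 50.2 and *Cyp2w1* at 32.4 to 40.7. *4930500L23Rik* stood at 26.0 to 38.1 and *Uncx* at 34.2 to 45.0. Near or below the middle of an array, a small difference says little about a gene.

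**Figure D4:**
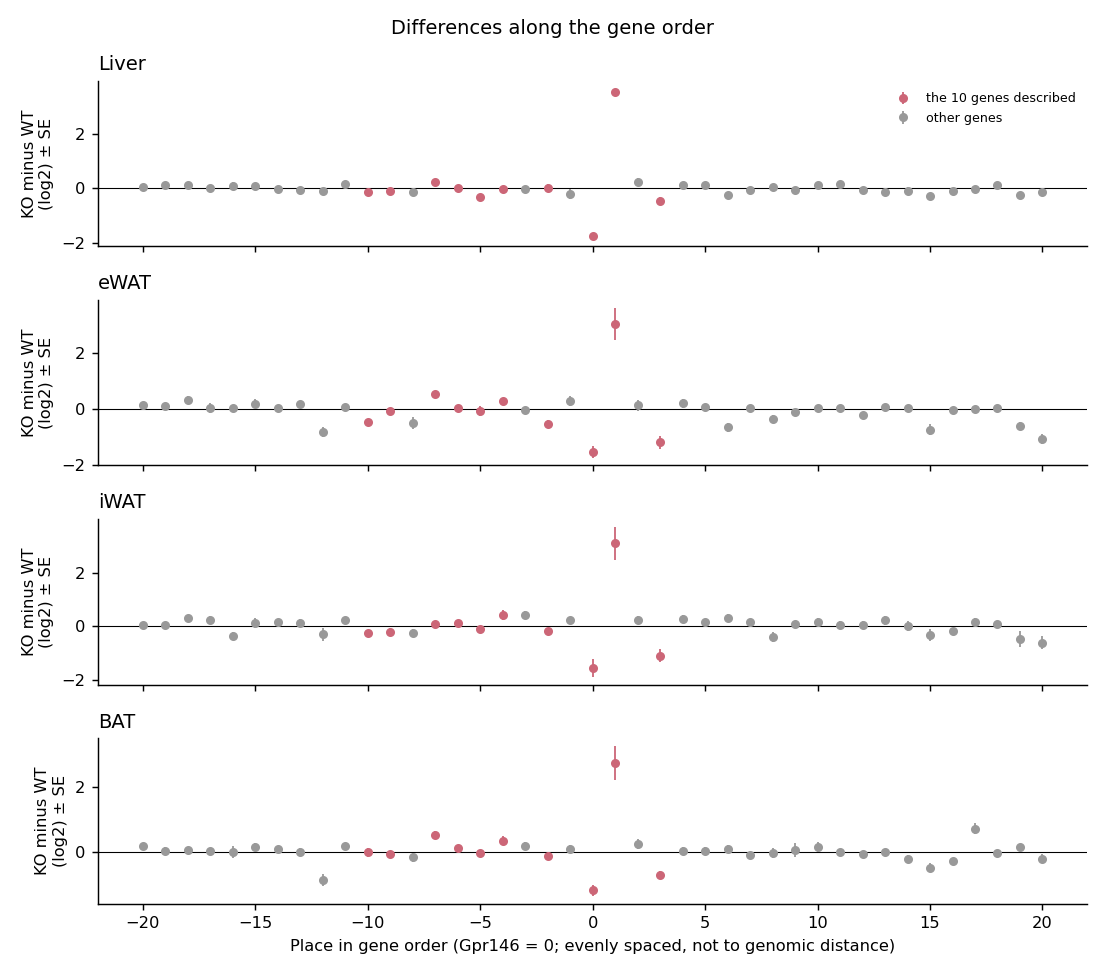
KO minus WT difference (log2) with its SE for the 41 measured genes from 20 places before to 20 places after *Gpr146* in gene order (evenly spaced, not by distance), 1 panel per tissue, with the 10 described genes in red and the others in grey. The values at places 0 (*Gpr146*) and 1 (*C130050O18Rik*) stand out in all 4 panels, and the gene at place 2, *Gpr30*, reads 0.14 to 0.25.

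Partners of the neighbours' products were counted over 6 further lists, also chosen with earlier results of these data known. None of their genes was called in liver, and in iWAT and BAT limma called none of the 69 genes of all 7 lists, with 19 and 25 at an unadjusted p below 0.05. By the methods' t-test 14 and 20 passed in these 2 depots before adjustment and 0 after it. Without KO replicate 2, limma called 1 of the 69 in iWAT. In eWAT 25 of the 69 were called, 22 lower and 3 higher in KO, a share of 36.2% beside 15.2% of all genes. The median difference of the 69 was -0.29 against 0.03. The 69 genes stood at a median WT percentile of 82.0 in eWAT, while the 15.2% includes dim genes. Whether their share exceeds that of equally bright genes was not tested. Of the 8 PKA catalytic and regulatory subunits and inhibitor peptides, partners of *Prkar1b*, 5 fell and none rose. The inhibitor gene *Pkia* fell most (-0.60 ± 0.17, adjusted p = 0.0412), followed by the regulatory subunit *Prkar2a* (-0.54 ± 0.10, adjusted p = 0.0119), *Pkib* (-0.46 ± 0.12, adjusted p = 0.0277) and the catalytic subunit *Prkacb* (-0.38 ± 0.10, adjusted p = 0.0306). Of the PKA genes, *Prkar2a* alone was called without WT replicate 1 (adjusted p = 0.0274), with *Pkia*, *Pkib* and *Prkacb* at 0.0956, 0.0729 and 0.059, and under quantile normalization 2 of the 8 fell and 1 rose. Both PDGF receptors fell, *Pdgfra* (-1.13 ± 0.31, adjusted p = 0.0359), which binds the product of *Pdgfa*, and *Pdgfrb* (-0.93 ± 0.17, adjusted p = 0.0111), and none of the 3 other ligands was called. Leaving out WT replicate 1, *Pdgfrb* was called (adjusted p = 0.0308) and *Pdgfra* was not (adjusted p = 0.078), and 1 of the 5 genes of this list fell under quantile normalization. Of the 6 tail-anchor genes that work with *Get4*, 2 fell, *Wrb*, now *Get1*, a membrane receptor of that pathway (-0.50 ± 0.08, adjusted p = 0.00871), and *Ubl4* (-0.44 ± 0.11, adjusted p = 0.0286), of which *Wrb* was called without WT replicate 1 and *Ubl4* was not (adjusted p = 0.0679).

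Of 9 LINC complex and lamina genes, partners of *Sun1*, *Syne1* rose (0.75 ± 0.14, adjusted p = 0.0111). It encodes a nesprin, a kind of protein that SUN proteins anchor. *Lmna* (-0.79 ± 0.18, adjusted p = 0.0195) and *Lmnb1* (-0.52 ± 0.14, adjusted p = 0.0317), which encode lamins, fell. The nesprin genes *Syne2* (0.21 ± 0.08, adjusted p = 0.106) and *AI428936*, now *Syne4* (0.055 ± 0.073, adjusted p = 0.66), were not called. *Syne1* and *Lmna* were also called without WT replicate 1, and *Lmnb1* was not (adjusted p = 0.0858). Of 10 ARF and ARF GAP genes related to *Adap1*, *Arfgap3* fell (-0.79 ± 0.18, adjusted p = 0.0199), and none of the 9 copper and cytochrome c oxidase assembly genes related to *Cox19* was called. Under quantile normalization 20 of the 69 genes were called in eWAT, 10 higher and 10 lower. Leaving out 1 array gave counts from 6 to 37, with 16 without WT replicate 1, 6 without WT replicate 2, 11 without WT replicate 3, 7 without WT replicate 4, 12 without KO replicate 1 and 10 without KO replicate 4.

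Markers of macrophages and adipocytes moved with genotype in eWAT. All 7 macrophage markers fell, with a median of -2.49, and the mean level of the 7 ranged from 9.28 to 9.44 over the WT arrays and from 5.82 to 8.89 over the KO arrays. The median without WT replicate 1 was again -2.49 and all 7 values were below 0, with 2 of the 7 called (*Itgam* and *Emr1*) and all 7 at an unadjusted p below 0.05. Of 6 adipocyte markers 5 rose and 1 fell, with mean levels of 9.47 to 9.54 in WT and 9.60 to 9.92 in KO. Of these 6, 3 rose and 1 fell without WT replicate 1, and likewise 3 and 1 under quantile normalization. In bulk tissue, fewer cells of a type and less RNA per cell cannot be told apart, and the part of these markers in the eWAT values of *Zfand2a*, *Sun1*, *Pdgfa* and *3110082I17Rik* was not tested. In iWAT all 7 macrophage values were below 0 with none called and 4 at an unadjusted p below 0.05, and in BAT and liver none was called either. In liver, of the 6 adipocyte markers *Cidec*, which encodes a lipid droplet protein, fell (-2.08 ± 0.38, adjusted p = 0.0387), the median of the 6 was -0.53, and their mean level ranged from 3.61 to 4.30 over WT and 3.02 to 3.76 over KO arrays. In BAT the 6 brown adipocyte markers had a median of -0.68 with none called and 4 at an unadjusted p below 0.05, and their mean level ranged from 8.59 to 8.94 over WT and 7.91 to 8.17 over KO arrays. The part of these lists in the liver and BAT values of the heat shock genes and members was not tested. Muscle marker levels ranged from 3.05 to 7.62 over WT and 3.09 to 7.82 over KO arrays of BAT, and lymphocyte marker levels from 3.43 to 7.61 and 3.57 to 7.31 over iWAT arrays. The part of these 2 lists in the members' values was not tested. Epididymis markers stood at 2.05 to 2.19 in all eWAT arrays. Each tissue's own markers were high, with a median percentile in WT of 99.8 for hepatocyte markers in liver, 98.9 and 99.4 for adipocyte markers in eWAT and iWAT, and 98.2 for brown adipocyte markers in BAT. An array has no true zero, so no marker was listed at 0.

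Over all genes the tables gave 163 calls in liver, 3758 in eWAT, 0 in iWAT (3803 at an unadjusted p below 0.05) and 7 in BAT. Of the calls, 24.5% were higher in KO in liver and 30.0% in eWAT, against 34.6% and 48.9% under quantile normalization. With 1 array left out, the counts ran from 41 (without WT replicate 3) to 300 (without KO replicate 2) in liver, from 1448 (without WT replicate 2) to 5429 (without KO replicate 2) in eWAT, from 0 to 227 (without KO replicate 2) in iWAT, and from 0 (without WT replicates 2, 3 or 4 or KO replicates 1, 3 or 4) to 80 (without WT replicate 1) in BAT. Arrays of a tissue correlated at 0.939 to 0.995.

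How the 4 tables were normalized is not given in the sources used here, and array medians ran from 2.82 to 2.86 in BAT and from 3.65 to 3.73 in iWAT, so levels were set side by side between tissues only as each gene's percentile within its array, which also reflects how well its probes bind. In WT mice *Gpr146* stood highest in liver, at 88.8 ± 0.4 (SD, n = 4), and all 4 liver arrays were above all BAT arrays. BAT (80.6 ± 1.8), iWAT (80.4 ± 7.4) and eWAT (78.7 ± 3.5) followed and overlapped each other in that order. By group mean the KO arrays were also highest in liver for *Gpr146*, at 71.4 beside 68.4 in BAT, 62.8 in eWAT and 61.1 in iWAT. The part of this remaining signal in the WT order was not tested. *Zfand2a* stood highest in eWAT (91.4 ± 0.6), then in iWAT (82.5 ± 3.0), then in BAT (74.5 ± 2.0) and liver (74.4 ± 2.5), and only the last pair of neighbours overlapped. *Adap1* ran from 63.2 ± 2.2 in eWAT to 40.2 ± 2.4 in liver, with iWAT (56.2 ± 3.1) and BAT (55.9 ± 1.1) overlapping between them. *Sun1* was lowest in liver (67.0 ± 2.5), below the 3 adipose depots at 75.3 to 78.5, whose neighbours overlapped.

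*C130050O18Rik* held 61.6 ± 2.7 in liver and 64.0 to 64.8 in the depots, where WT replicate 1 alone stood at 86.0 or above, and all neighbours in its order overlapped. Without WT replicate 1 the order turned, with liver highest, then eWAT (57.4 ± 3.7, n = 3), BAT (56.7 ± 2.5) and iWAT (54.9 ± 4.0), and neighbours again overlapped. *Gpr146* then stood at 82.9 ± 6.7 in iWAT, 81.3 ± 1.3 in BAT and between 77.1 and 82.8 in eWAT, below every liver array, and the percentiles of the other 8 members moved by at most 1.5. *Sun1* in BAT was then above eWAT without overlap. *Get4* was the one member with no overlap between any neighbours in its order, from BAT (80.6 ± 0.9) through liver (78.0 ± 0.9) and eWAT (73.5 ± 0.6) to iWAT (70.3 ± 1.4). *Cox19* was also highest in BAT (80.9 ± 1.0) and lowest in iWAT (72.0 ± 4.0). *Pdgfa* stood between 64.6 in BAT and 70.2 in eWAT, *3110082I17Rik* between 66.1 in BAT and 74.5 in liver, and *Prkar1b* between 42.8 in liver and 52.7 in BAT.

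**Figure D5:**
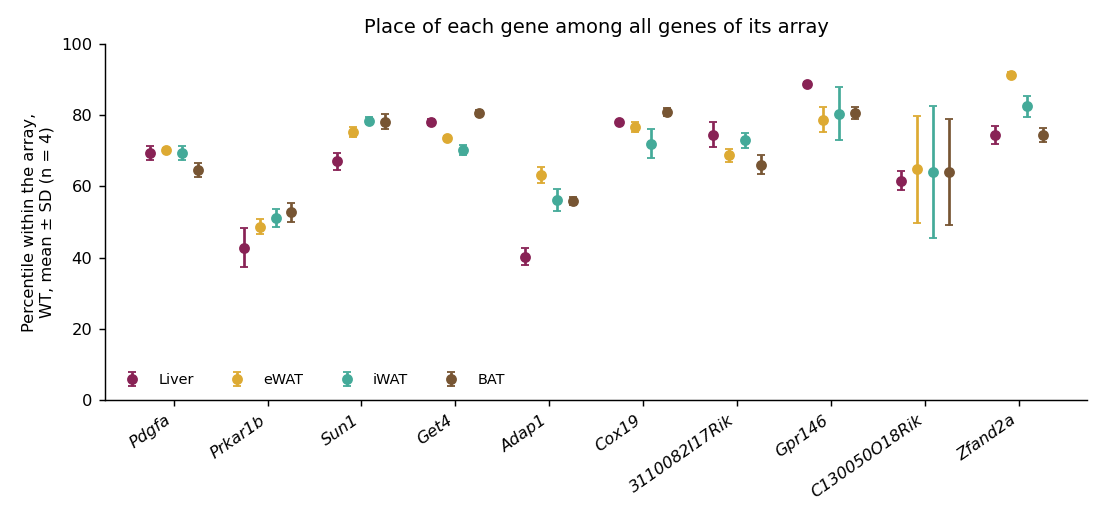
Percentile of each of the 10 genes among the 24646 genes of its array in WT mice, mean and SD of 4 arrays, by tissue. *Gpr146* is highest in liver (88.8), *Zfand2a* in eWAT (91.4), and *C130050O18Rik* has the widest bars in the 3 adipose depots, where WT replicate 1 stood at 86.0 or above.

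Likeness to *Gpr146* and to *C130050O18Rik* was measured as Pearson's r over the 32 arrays after each value was centred on its tissue mean. Arrays of both genotypes enter, so a gene that separates the genotypes as these 2 do has an r far from 0, and arrays of a tissue come from 1 table. The 2 genes had the lowest r with each other, -0.88. Without the 3 adipose arrays of WT replicate 1 it was -0.91 over 29 arrays. Within genotype and tissue groups, centring on the group mean, their r was -0.33 with these 3 arrays and 0.43 without them. Highest with *Gpr146* were *BC023829* (0.81), *Trp53inp2* (0.81), which encodes an autophagy factor, *Zfp948* (0.80), *Raph1* (0.80) and the phosphatase gene *Dusp3* (0.80). After *C130050O18Rik*, lowest with *Gpr146* were *Snord32a* (-0.80), *Izumo4* (-0.79), *Snord82* (-0.77) and *Cbx3* (-0.76).

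Highest with *C130050O18Rik* were *Cbx3* (0.82), which encodes the heterochromatin protein HP1 gamma, *Fasn* (0.81), which encodes fatty acid synthase, *Phactr3* (0.80), *Sult1a1* (0.79) and *Gm19648* (0.79). After *Gpr146*, the lowest were *Palld* (-0.87), *Hsp90aa1* (-0.86), *Hsph1* (-0.86) and *Cacybp* (-0.85). Within genotype and tissue groups *Hsph1* and *Hsp90aa1* had r values of -0.63 and -0.60 with *C130050O18Rik*, and of -0.32 and -0.03 without the 3 adipose arrays of WT replicate 1. Centred on the tissue mean, the genes named here kept r values within 0.04 of those given when these 3 arrays were left out. Their places changed. Among the highest with *C130050O18Rik*, *Fasn* stayed 2nd, and *Cbx3*, *Phactr3*, *Sult1a1* and *Gm19648* stood 4th, 6th, 9th and 10th. Among the highest with *Gpr146*, *BC023829* stayed 1st, and *Trp53inp2*, *Zfp948*, *Raph1* and *Dusp3* stood 5th, 7th, 8th and 9th. At the low end, *Cbx3* moved to 8th with *Gpr146* and *Hsph1* to 6th with *C130050O18Rik*. *Fasn* read 7.19, 6.91, 7.53 and 7.03 in WT and 9.40, 8.36, 9.56 and 8.69 in KO iWAT, without overlap. Among the members, *Sun1* was 29th of all genes in likeness to *C130050O18Rik* (0.73), and *Zfand2a* was 59th in likeness to *Gpr146* (0.73). Without the 3 adipose arrays of WT replicate 1 they were 46th and 76th.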

How the data were processed

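RNA of 32 samples had been hybridized to Affymetrix Mouse Gene 2.1 ST arrays, from 100 ng of total RNA each. The authors deposited 1 table of log2 intensities per tissue, with a value per gene and array. How these log2 values were background-corrected, summarised and normalized is not given in the sources used here, and the medians of the arrays differed more between tables than within them, so tests were run within a table only. The table taken as eWAT carries a short name read as visceral fat and was the one left for that depot, and the table taken as iWAT a short name read as inguinal fat. For 840 genes the deposited ID is not a whole number, none of them a member. The tables hold no other columns of samples. Entries with a blank name or a name turned into a number by a spreadsheet, 1 or 2 per table, were left out, and no filter on low values was applied, so all 10 members passed.

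KO minus WT differences came from limma 3.58.1 (R 4.3.3; lmFit and eBayes on the 8 arrays of a tissue), with Benjamini-Hochberg adjustment over 24646 genes and a threshold of 0.05. The procedure was tested on simulated data. The SE printed with a difference is limma's moderated SE, and n = 4 arrays per genotype limits its precision. P-values measure the spread between mice as labelled. The members and the gene lists were chosen with earlier results of these data known, and members were given no test. Named genes were all members, the 3 nearest other genes on each side, every other gene of the 20 on each side that was called, up to 4 called genes per partner list and tissue by size of difference, and the 5 genes at each end of the likeness order. Gene symbols were matched to RefSeq (GRCm38.p6), 21227 by current symbol and 2243 through an alias, with 1176 left unmatched. The files name no build, so coordinates are given only for RefSeq promoters. Alternatives were quantile normalization, equal array medians, a trended and robust prior, array weights, leaving out dim genes or single arrays, other sizes of the region, the methods' t-test, and a block for replicate number. Percentiles and correlations without the adipose arrays of WT replicate 1 were added after seeing the data.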

Additional observations from a re-analysis of the deposited data

Results flagged for a closer look

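*C130050O18Rik* in WT iWAT had 1 array far from the other 3, WT replicate 1 at 6.98, with a gap to its nearest neighbour of 0.83 of the range of the group. The same held in WT BAT, where WT replicate 1 read 5.85 and the gap was 0.87 of the range. These were the only 2 of 80 groups of 4 arrays (10 members, 4 tissues, both genotypes) with a gap above the 95% critical value of Dixon, a limit that chance passes in about 1 of 20 groups. The eWAT array with the same label, at 6.45, came close to the limit without passing it.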

How the results depend on the processing

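The *Gpr146* and *C130050O18Rik* differences kept their direction under every alternative run. With 1 array left out, *Gpr146* ranged from -1.83 to -1.71 in liver, -1.69 to -1.35 in eWAT, -1.78 to -1.35 in iWAT and -1.32 to -1.03 in BAT, and *C130050O18Rik* from 3.46 to 3.65, 2.74 to 3.74, 2.74 to 3.82 and 2.42 to 3.35. Over the 10 members and 4 tissues, 509 of 516 alternative values moved by less than 1 SD between replicates and none of the values without overlap changed sign. The 7 that moved further all came from quantile normalization, and the cause was not tested. They were, in eWAT, *Cox19* (0.47), *Get4* (0.19), *Sun1* (0.71) and *Pdgfa* (-0.32), in iWAT *Get4* (0.26) and *Sun1* (0.27), and in BAT *Get4* (0.19). *Adap1* in liver and *Prkar1b* in liver, eWAT and iWAT have no value where dim genes were left out. Much of the count of 509 was settled in advance. Leaving out 1 of 4 arrays cannot move a group mean by 1 SD of that group, nor turn the sign of a difference without overlap. Leaving out dim genes or adding the replicate block does not change a difference at all. The WT SD of *C130050O18Rik* in eWAT, iWAT and BAT (1.375, 1.501 and 1.295) also includes WT replicate 1. Among the 31 other genes of the region, the methods' t-test passed 1 in liver, 8 in eWAT, 3 in iWAT and 5 in BAT unadjusted, and 0 in eWAT after adjustment, against 5 by limma. With 1 array left out the eWAT count was 2 to 5 (the other tissues stayed at 0), and it was 1 over the 10 nearest genes on each side and 10 over the 40 nearest, where the list itself is smaller or larger. Among the 69 partner genes, the methods' t-test passed 22, 39, 14 and 20 in liver, eWAT, iWAT and BAT unadjusted and 0 in liver and eWAT after adjustment. With 1 array left out the counts were 3 to 7, 6 to 37, 0 to 1 and 0 to 9. Equal replicate numbers did not deviate together in every pair (correlations of -0.385 to 0.669 over genes, with pairs below 0.1 in each tissue), so they were not treated as pairs. With the replicate block, limma called 5 of the 31 and 23 of the 69 in eWAT and 6 of the 69 in liver, and 1 gene in place of 0 over all of iWAT and 0 in place of 7 over all of BAT. The number of arrays, 4 per group, limits the precision of each difference.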
